A study of Mus musculus with 2 samples.

Results

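The circadian clock genes described here are Per1, Per2, Per3, Cry1, Cry2, Arntl (also called Bmal1), Nr1d1, Nr1d2, Dbp and Ciart. They are 10 of the 23652 genes listed for islets of mice with and without a Cre that targets Srsf2 in beta cells. Each was found by its gene symbol. The set was chosen by its read counts and FPKM values in this same comparison, so every difference between the libraries is given as a description and carries no test. RNA of pancreatic islets, the clusters of hormone cells in the pancreas, was sequenced from mice aged 7 months in 2 groups with 1 library each. The control group had the genotype SRSF2 flox/flox, in which the splicing factor gene Srsf2 is flanked by recombination sites but intact. The knockout group was SRSF2 flox/flox Ins2-Cre, in which an insulin promoter drives Cre recombinase in beta cells. By this design the other islet cells keep the gene, which bulk RNA does not show. No Cre was named for the control, so a difference due to Cre itself and one due to the loss of Srsf2 cannot be told apart, nor can either be told apart from a difference between any 2 islet preparations. The sources used here do not give the number or sex of the mice, or the hour at which islets were taken.

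The mammalian clock is a loop of transcription and feedback that runs in nearly every cell, islet cells included. The activators CLOCK and BMAL1 (the product of Arntl) bind a short DNA element called the E-box and switch on the Per, Cry, Nr1d, Dbp and Ciart genes. PER, CRY and the small repressor CIART (also called CHRONO) then silence CLOCK and BMAL1. The nuclear receptors REV-ERB alpha and beta, encoded by Nr1d1 and Nr1d2, repress Arntl through a further site, the ROR element, on which the ROR receptors act as activators. Because of this wiring, E-box genes and Arntl reach their highest RNA levels at opposite times of day, and in islets the clock is known to take part in timing insulin secretion.

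Short stretches of the promoters are shown because they hold the elements through which clock proteins are known to act on these genes. They come from RefSeq on build GRCm38.p6, in windows from 250 bases before to 50 bases after an annotated start. Of the 10 genes, 9 matched (all but Per2), with 11 windows in all, since Per1 and Arntl each have a pair. Each line is read 5′ to 3′ on the strand of the gene, and capitals mark a match. The motifs searched on both strands were the E-box CACGTG, its variant CACGTT (the E′-box), the D-box TTATGTAA or TTACGTAA, the cyclic AMP element half-site TGACGT and the ROR element TAGGTCA. Matches of different motifs did not overlap in these windows. Apart from the Arntl stretch, which lies after its annotated start, all lie upstream of one.
Ciart, chr3:95882247-95882364, minus strand, E-boxes: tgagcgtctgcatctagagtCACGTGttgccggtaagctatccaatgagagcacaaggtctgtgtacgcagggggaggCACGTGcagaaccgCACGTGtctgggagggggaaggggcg
Per1, chr11:69098763-69098808, plus strand, E-box: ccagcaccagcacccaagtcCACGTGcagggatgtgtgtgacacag
Per1, chr11:69100000-69100045, plus strand, cyclic AMP element half-site: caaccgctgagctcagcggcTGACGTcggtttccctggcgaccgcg
Per3, chr4:151044796-151044890, minus strand, D-boxes: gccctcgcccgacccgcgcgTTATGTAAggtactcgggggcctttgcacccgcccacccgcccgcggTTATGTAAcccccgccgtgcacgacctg
Cry1, chr10:85185089-85185153, minus strand, E′-box then E-box: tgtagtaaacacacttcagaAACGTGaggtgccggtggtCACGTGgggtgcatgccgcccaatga
Nr1d1, chr11:98775380-98775425, minus strand, E′-box: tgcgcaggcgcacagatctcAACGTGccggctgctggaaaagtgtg
Cry2, chr2:92434210-92434255, minus strand, E′-box: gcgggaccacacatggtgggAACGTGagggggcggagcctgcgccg
Arntl, chr7:113207531-113207557, plus strand, ROR element: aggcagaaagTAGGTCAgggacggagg

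An exact E-box stood in the windows of 3 of the 9 genes, against 8.09% of 27025 genes with a window, and Ciart alone had 3 of them, at positions -116, -58 and -44 from its start. Among all 32851 windows of the genome 7.15% held an E-box, 4.68% an E′-box, 1.06% a D-box, 7.51% the cyclic AMP element half-site and 2.61% the ROR element. Cry2 and Nr1d1 had an E′-box at -166 and -28. Per3 held a D-box at -205 and again at -158. Nr1d2 and Dbp matched none of these letters in their windows. A match describes the sequence only and shows no binding.

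**Figure D1:**
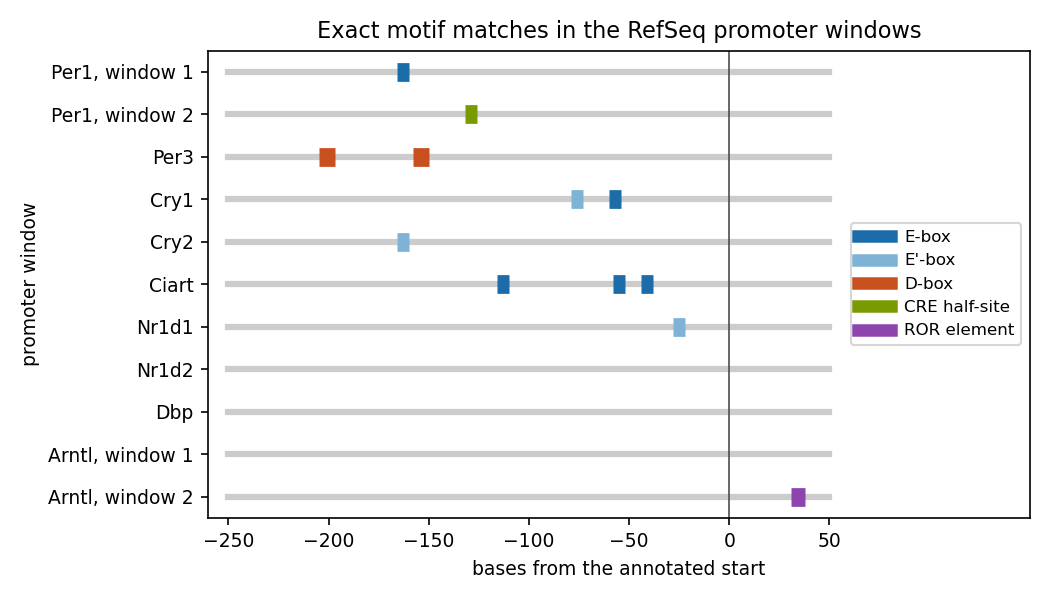
Positions of exact motif matches in the promoter windows of 9 clock genes, in bases from the annotated start (0), with coloured blocks for each motif and grey bars for the window. Windows 1 and 2 of Per1 and of Arntl follow their order along the chromosome. Ciart has 3 E-boxes, Per3 has 2 D-boxes, and the ROR element of Arntl lies after the start.

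Levels are FPKM, which are reads scaled to the listed gene length and to all reads on genes, so they can be compared between genes. The intervals given with ratios of levels are exact 95% binomial intervals of the read counts and cover counting error only. Srsf2, the targeted gene, had 37.2 FPKM in the control and 22.6 in the knockout, a ratio of 0.607 (0.566 to 0.651) from reads over its full listed length in all cells of the islet. On the log2 scale defined further on, Srsf2 was at -0.34 relative to the median of all measured genes, and 20.2% of them had a lower difference. With the trend on gene length removed, also described further on, Srsf2 was at -0.31. The libraries held 17412828 and 15098659 reads on genes. The 12 beta cell markers took 23.4% of control reads and 21.4% of knockout reads, most of them reads of Ins1, Ins2 and Iapp. Of these 12, 4 were at least 2-fold lower on the same log2 scale, with a median of -0.62, and 10 were below genes of their length. Of all 10666 measured genes 6.32% were as low, with a median of -0.36, and 5381 were below the length trend. Markers of acinar cells, the enzyme-secreting cells around islets, differed most: 19 of 20 measured were at least 2-fold higher. Of all measured genes 1.57% were as high. The 21 listed acinar genes took 1.55% and 13.9% of reads, or 13762 and 124572 summed FPKM. Delta and PP cell markers were at 0.868% and 1.81% of reads, 3 of 5 being at least 2-fold higher. Lymphocyte markers were at 0.00331% and 0.00858% (3 of 4) and alpha cell markers at 2.23% and 3.02% (0 of 7). As high were also 1 of 5 duct, 1 of 6 macrophage, 0 of 7 endothelial and 0 of 4 stromal markers. No marker of these lists was at 0 in either library. The part of these cells in the clock gene differences was not tested. In bulk RNA, fewer cells of a type and less RNA per cell cannot be told apart.

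Of the 10 clock genes, 8 had a lower level in the knockout library and 2, Arntl and Cry1, a higher one. Of the 10666 genes with a mean of at least 1 FPKM, 78.9% were lower too, so this count is near that of all genes. For all 8 lower genes the interval lay below 1, and for Arntl it lay above 1. The summed level of the 10 genes was 243.9 FPKM in the control and 122.1 in the knockout. With 1 library per group there is no replicate check on any of these values.

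The Per genes encode the PERIOD proteins, the partners of CRY in the repressor complex, and all 3 were lower in the knockout library. Per1 (chromosome 11, 69095108 to 69109965) counted 1960 control and 654 knockout reads, which are 13.1 and 5.05 FPKM. Its FPKM ratio of knockout to control was 0.385 (interval 0.352 to 0.421). This is the lowest ratio of the 10 genes. Per2 (chromosome 1, 91415977 to 91459351) had 1094 and 499 reads, or 10.4 and 5.50 FPKM, and a ratio of 0.526 (0.472 to 0.585). Per3 (chromosome 4, 150997018 to 151044707) was scarce, with 230 and 85 reads, or 1.92 and 0.817 FPKM, and a ratio of 0.426 (0.328 to 0.549). The intervals of Per1 and Per3 overlap, and that of Per1 lies below that of Per2. Inside a library, where the library total cancels, Per1 stood at 1.26 times the level of Per2 in the control (1.17 to 1.35) and at 0.920 times in the knockout (0.817 to 1.04). Uts2, on the opposite strand within Per3, had 0 reads in both libraries.

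The CRY proteins carry out most of the repression of CLOCK and BMAL1, and their genes parted in these libraries. Cry2 (chromosome 2, 92403646 to 92434085) was the most abundant clock gene, with 6555 reads (90.9 FPKM) in the control and 2407 (38.5 FPKM) in the knockout. Its ratio was 0.423 (0.404 to 0.444). Cry1 (chromosome 10, 85131700 to 85185054) had 432 and 404 reads, or 6.24 and 6.73 FPKM. Its ratio of 1.08 had an interval that includes 1 (0.939 to 1.24). The genes are of near equal listed length (4142 bases for Cry2 and 3977 for Cry1). Their ratio inside a library does not depend on the library total. Cry2 stood at 14.6 times Cry1 in the control (13.2 to 16.1) and at 5.72 times in the knockout (5.15 to 6.37). Both intervals are apart, and the control value was 2.55 times the knockout value. Cry1 is the gene of the pair whose promoter stretch above holds an exact E-box.

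Ciart (chromosome 3, 95878500 to 95882257), whose protein binds BMAL1 and represses it, counted 384 control reads and 133 knockout reads. Its level was 9.74 and 3.89 FPKM, a ratio of 0.399 (0.325 to 0.488). It is the shortest of the 10 genes at 2265 bases, and the one with the largest departure below genes of its length, as described further on.

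The REV-ERB genes were both lower, by about the same factor. Nr1d1 (chromosome 11, 98767932 to 98775377) had 1038 and 478 reads, or 21.6 and 11.4 FPKM, and a ratio of 0.531 (0.476 to 0.592). Nr1d2 (chromosome 14, 18204056 to 18239106) had 4133 and 1766 reads, or 51.2 and 25.2 FPKM, and a ratio of 0.493 (0.466 to 0.521). Their intervals overlap, and Nr1d2 stood at 2.37 times Nr1d1 in the control (2.22 to 2.54) and 2.20 times in the knockout (1.99 to 2.44). Nr1d1 overlaps the thyroid hormone receptor gene Thra by 1075 bases on the opposite strand. Thra had 1167 and 631 reads, a ratio of 0.624, and since the strand setting of the counting is not given, reads of the shared bases cannot be assigned to either gene with certainty.

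Dbp (chromosome 7, 45705100 to 45710203) encodes a transcription factor that carries the rhythm to output genes through the D-box. Its 1696 control reads and 932 knockout reads are 38.6 and 24.5 FPKM. At a ratio of 0.634 (0.584 to 0.687), Dbp had the smallest deficit of the 8 lower genes. It shares 741 bases with Sphk2 on the opposite strand, which had 588 and 435 reads, so the same doubt on strand applies.

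Arntl (chromosome 7, 113178471 to 113314126), the activator of the set, went the other way at a very low level. With 39 control reads and 77 knockout reads, its level was 0.215 and 0.490 FPKM, a ratio of 2.28 (1.53 to 3.44). Nr1d1 stood at 100.1 times the level of Arntl in the control (72.7 to 141.6) and at 23.3 times in the knockout (18.3 to 30.1). Dbp stood at 179.2 times Arntl in the control (130.6 to 252.9) and at 49.9 times in the knockout (39.5 to 63.8). Both ratios between an E-box gene and Arntl were thus smaller in the knockout library, beyond counting error. The Arntl ratio rests on fewer reads than that of any other member, in each library.

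**Figure D2:**
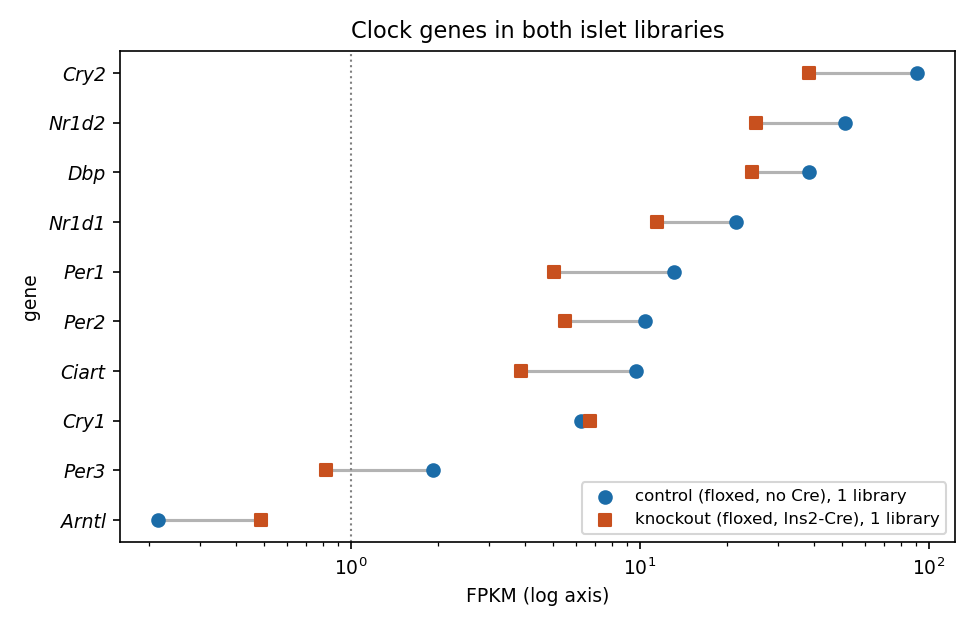
FPKM (log axis) of the 10 clock genes in the control library (blue circles) and the knockout library (orange squares), 1 library per group and no error bars, ordered by the control level. The dotted line is the minimum mean level of 1 FPKM. The knockout symbol lies left of the control for 8 genes, is next to it for Cry1, and lies right of it for Arntl.

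The order of the levels was Cry2, Nr1d2, Dbp, Nr1d1, Per1, Per2, Ciart, Cry1, Per3 and Arntl in the control. In that order the only neighbours whose ratio had a counting interval including 1 were Per2 and Ciart (1.07, 0.955 to 1.21). In the knockout the first 4 kept their places, Cry1 stood above Per2, Per1 and Ciart, and Per3 and Arntl were again last. There Nr1d2 and Dbp (1.03, 0.951 to 1.12) and Per2 and Per1 (1.09, 0.966 to 1.22) did not differ beyond counting error. Cry1 stood at 1.22 times Per2 in the knockout (1.07 to 1.40), whereas Per2 stood at 1.67 times Cry1 in the control (1.497 to 1.877). Cry2 alone made up 37.3% of the summed FPKM of the 10 genes in the control and 31.5% in the knockout.

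These ratios stand in a library in which most genes were lower. On the scale log2(FPKM + 0.5), knockout minus control, the median difference of the 10666 genes with a mean of at least 1 FPKM was -0.36, a ratio of 0.778. Of the clock genes 9 passed this minimum; Arntl did not, and Per3 did so through its control level. On that scale 4 of the 9 were at least 2-fold lower, namely Per1 at -1.30, Cry2 at -1.23, Ciart at -1.22 and Nr1d2 at -1.01. Of all measured genes 674 (6.32%) were as low. None of the 9 was at least 2-fold higher, against 1.57% of all measured genes. Nr1d2 was the gene just past that size and Nr1d1 (-0.88) the next below it, followed by Per3 (-0.88), Per2 (-0.87) and Dbp (-0.65), and Cry1 was at 0.10. The pseudocount draws low genes towards 0, so Per3 falls short of 2-fold here although its FPKM ratio is below 0.5, and Arntl stood at 0.47.

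Against the shift of the whole table, 8 clock genes were still below the median, but none by 2-fold. Relative differences were -0.93 for Per1, -0.87 for Cry2, -0.86 for Ciart, -0.64 for Nr1d2, -0.52 for Nr1d1, -0.51 for both Per3 and Per2, -0.28 for Dbp and 0.46 for Cry1. On this scale 0 of the 9 clock genes passed 2-fold either way, whereas 1.36% of all measured genes did so downwards and 3.22% upwards. Among genes past 2-fold, 19.9% were higher as deposited, 41.3% with acinar genes left out of the total, 67.4% with the authors' scaling and 70.3% relative to the median. In rank, 1.73% of measured genes had a lower difference than Per1, 2.24% than Cry2, 2.33% than Ciart and 6.15% than Nr1d2. For Dbp that share was 24.5%, and for Cry1 84.0%. With acinar markers left out of the library total, the differences were -1.12 for Per1, -1.04 for Cry2, -1.05 for Ciart, -0.82 for Nr1d2 and 0.28 for Cry1.

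In the authors' deposited table, whose values are read counts scaled by 1 size factor per library, the log2 fold change was -0.997 for Per1, -0.94 for Ciart, -0.86 for Cry2, -0.85 for Per3 and 1.57 for Arntl. The same authors' deposited table gives -0.64 for Nr1d2, -0.55 for Per2, -0.53 for Nr1d1, -0.28 for Dbp and 0.49 for Cry1. It lists an adjusted p under 0.05 for 0 of the 10 clock genes and for 0.496% of all genes in it, from DESeq on 1 library against 1.

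**Figure D3:**
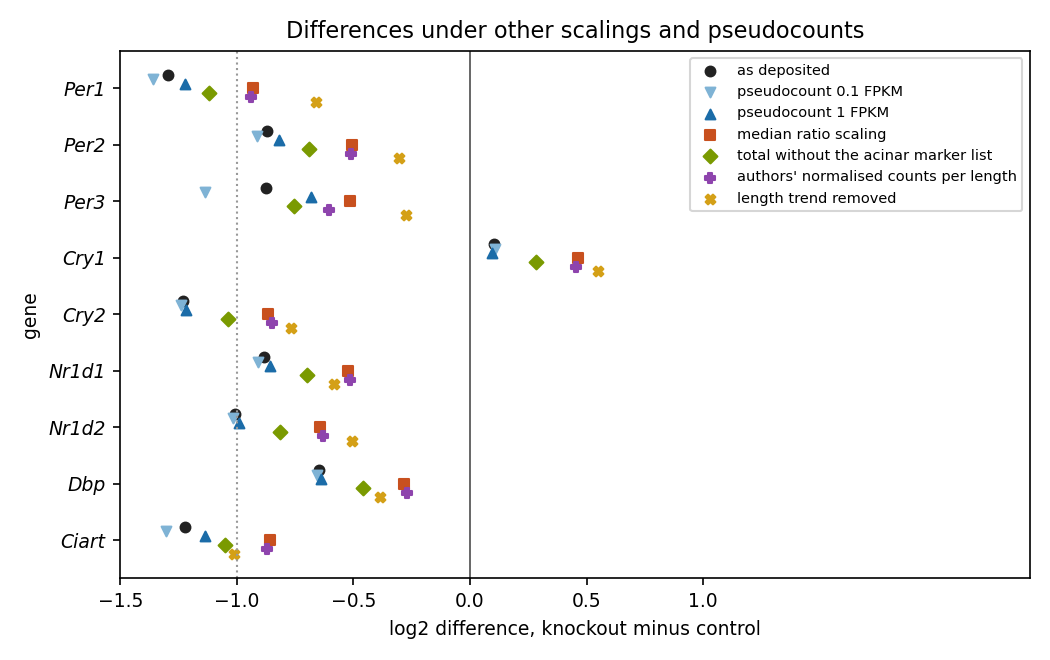
Log2 difference of each of the 9 measured clock genes, knockout minus control, as deposited and under 6 other pseudocounts or scalings. The solid line is no difference and the dotted line is 2-fold lower. Cry1 is above 0 and the 8 other genes are below 0 under each setting plotted.

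Differences also followed gene length across the whole table (Spearman rho -0.55 over 10666 genes, which are not independent), so each clock gene was set against a smooth trend of difference on length. The trend stood at -0.21 for the length of Ciart and at -0.63 for that of Per1. With it removed, Ciart was at -1.01, Cry2 at -0.77, Per1 at -0.66, Nr1d1 at -0.58, Nr1d2 at -0.51 and Dbp at -0.39. Per2 (-0.30) and Per3 (-0.28) were nearer to other genes of their length, and 18.6% and 20.6% of all measured genes were lower than they were. Of genes so corrected 1.003% were lower than Ciart and 2.61% lower than Cry2. Cry1 was at 0.55 above the trend. Arntl, below the minimum level and at 10398 bases the longest of the set, was at 1.10. Among the 9 measured clock genes, without Arntl, only Ciart was at least 2-fold lower after this correction, and 0 were at least 2-fold higher. Of all measured genes 1.07% were as low and 2.01% as high, and of those past 2-fold 65.2% were then higher.

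**Figure D4:**
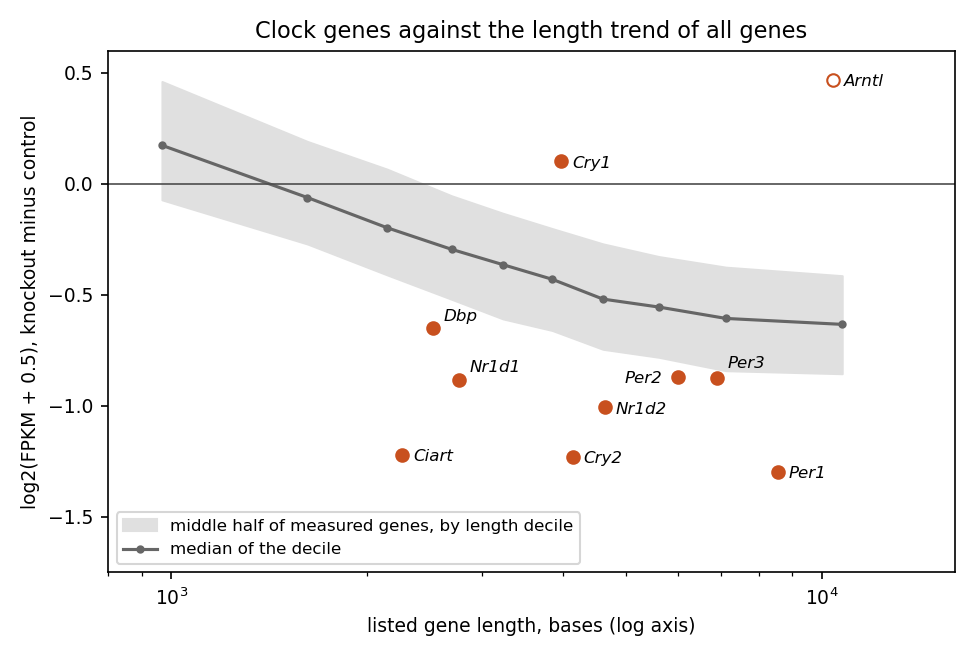
Log2(FPKM + 0.5) difference, knockout minus control, against listed gene length (log axis) for the 10 clock genes (orange; Arntl, below the minimum level, is open). The grey line is the median and the band the interquartile range of all measured genes in 10 length groups. Ciart, Nr1d1, Dbp, Cry2, Nr1d2 and Per1 lie below the band, Per2 and Per3 just below it, and Cry1 and Arntl above it.

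Other genes of the loop, from lists set by role, gave a mixed picture. Among E-box and D-box driven clock genes (Per1, Per2, Per3, Nr1d1, Nr1d2, Dbp, Ciart, Tef, Hlf and Bhlhe41; Cry2 is not on this list) 10 of 10 were below the median of all genes. Per1, Ciart, Tef and Nr1d2 were the 4 at least 2-fold lower as deposited, against 6.32% of all measured genes, and 0 were so relative to the median. All but Tef, Hlf and Bhlhe41 belong to the set chosen by these same values, so the counts and the median of this list are a description only. The median of the 10 genes was -0.88, against -0.36 for all measured genes. Tef, a relative of Dbp, had 32.3 and 14.4 FPKM, a ratio of 0.447 (0.419 to 0.476). Hlf, the other relative, had 5.43 and 4.01 FPKM, and its relative difference of -0.03 was near that of all genes. Bhlhe40 and Bhlhe41, which encode the E-box repressors DEC1 and DEC2, had ratios of 0.618 (0.544 to 0.701) and 0.693 (0.641 to 0.749). With the length trend removed Hlf (0.16) and Bhlhe41 (0.06) were above 0, and 8 of the 10 remained below.

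A list of genes known to be regulated through ROR elements held Arntl, Npas2, Clock, Nfil3 and Cry1, of which the last 3 passed the minimum level. Cry1 is also an E-box gene, and its promoter window held no ROR element. Their median of 0.10 is Cry1's own value. Nfil3, which encodes a repressor that competes with DBP at the D-box, had 125 and 155 reads, or 1.42 and 2.03 FPKM, a ratio of 1.43 (1.12 to 1.82). Cry1 and Nfil3 were above 0, whereas Clock, the partner of Arntl, had 6.35 and 3.36 FPKM and a ratio of 0.529 (0.478 to 0.586). Npas2, a stand-in for Clock, had 9 reads in each library, and Arntl2, a relative of Arntl, had 33 and 21 (ratio 0.734, 0.404 to 1.31). Of the partners that form the activator, Arntl was thus higher and Clock lower in the knockout library. The median of the E-box and D-box list minus that of the ROR element list was -0.98 on the log2 scale, a description only, since 7 of the 10 genes in the first list and Cry1 in the second were chosen by these values. Inside a library, Dbp stood at 27.2 times Nfil3 in the control (22.7 to 32.9) and at 12.1 times in the knockout (10.2 to 14.4).

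Rora and Rorb encode ROR receptors, activators that share sites with REV-ERB. Rora had 867 and 438 reads, 0.975 and 0.568 FPKM, below the minimum level, and Rorb had 4 and 1 reads.

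**Figure D5:**
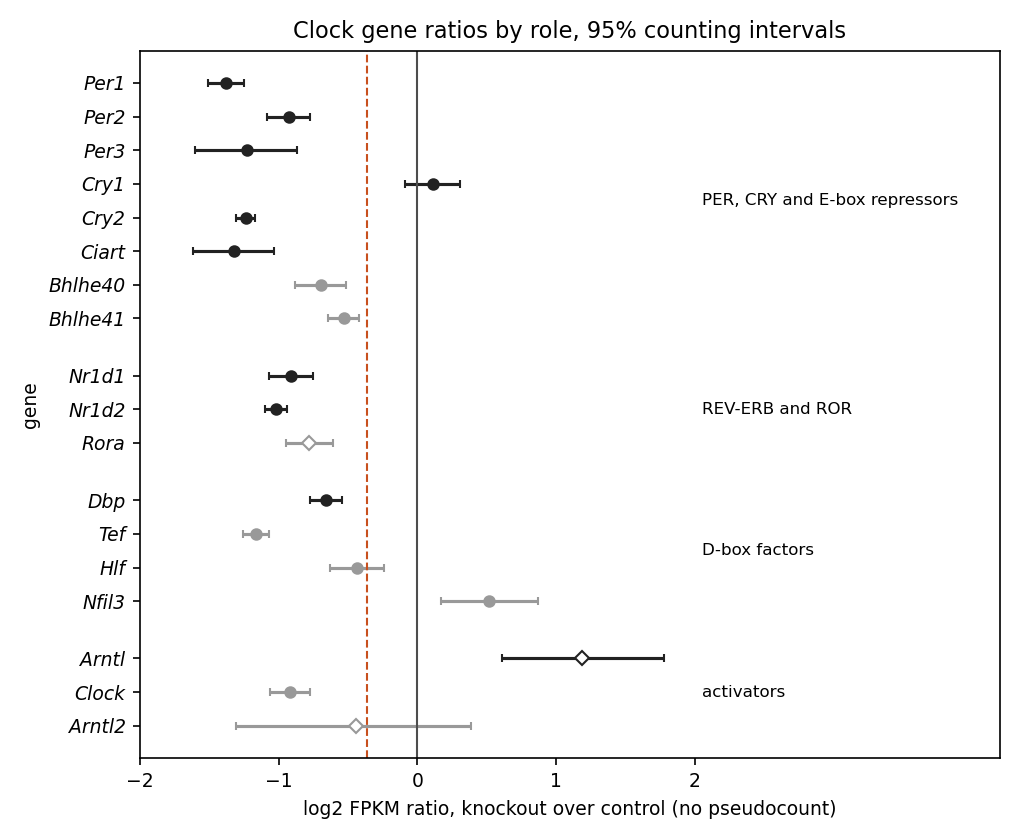
Log2 FPKM ratio of knockout to control without a pseudocount for clock transcription factor genes by role, with 95% counting intervals from the reads of 1 library per group. Black symbols are the 10 genes of the set, grey ones other clock genes, and open diamonds genes under the minimum level. The dashed line is the median difference of all measured genes (-0.36), which was taken with the pseudocount of 0.5 FPKM, unlike the points. Arntl, Nfil3 and Cry1 lie right of 0, and only for Cry1 among them does the interval include 0.

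Genes for the enzymes and cofactors of the clock were mostly lower, as were 78.9% of all measured genes. At least 2-fold lower as deposited were 6.32% of all measured genes. All 9 measured kinase and ubiquitin ligase genes were below 0, 1 of them by 2-fold: Csnk1d, a casein kinase that phosphorylates PER, at 35.9 and 17.04 FPKM (ratio 0.475, 0.443 to 0.509). Their median of -0.69 came to -0.08 with the length trend removed. With that trend removed Csnk1d was at -0.57. Of 9 measured cofactor genes 2 were at least 2-fold lower, and their median of -0.59 came to -0.21 with the trend removed, 6 of 9 being below it. Ncor1, the corepressor through which REV-ERB acts, had 1257 and 297 reads (ratio 0.272, 0.239 to 0.309), and Sfpq, an RNA-binding partner of PER, had 4970 and 2019 (0.469, 0.445 to 0.493). Ncor1 was at least 2-fold lower relative to all genes as well, at -1.24, and with the length trend removed Ncor1 was at -0.98 and Sfpq at -0.44.

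Output genes that cycle in many tissues were 8, of which 3 were at least 2-fold lower and 0 higher as deposited, with a median of -0.54. Of all measured genes 6.32% were as low and 1.57% as high. Relative to the median of all genes 1, Noct at -1.24, remained past 2-fold. Noct, which encodes the phosphatase nocturnin, stood at 27.8 and 8.79 FPKM, a ratio of 0.317 (0.283 to 0.353). Klf10 and Klf9, transcription factor genes under clock control, had ratios of 0.375 (0.334 to 0.420) and 0.459 (0.431 to 0.489). Usp2 and Wee1, known E-box targets, had relative differences of -0.04 and 0.02, at the level of all genes, and Tspan4 was highest at 0.44. Over all 33 measured clock genes outside the 10, 7 were at least 2-fold lower and 0 higher as deposited, and 2 lower and 0 higher relative to the median. Over all measured genes these shares were 6.32% and 1.57% as deposited, and 1.36% and 3.22% relative to the median. The median difference of the 33 genes was -0.59, and it came to -0.09 with the length trend removed. The 9 measured genes of the set had medians of -0.88 as deposited and -0.51 with the length trend removed. They were chosen by these same values, so setting them beside the other clock genes is a description only.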

How the data were processed

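Read counts per gene were deposited as whole numbers with FPKM values, per the file headers. FPKM recomputed from the reads, the listed length and the total on genes matched 100% of the deposited FPKM values (to within 0.0001%). The deposited comparison table holds normalised counts as a signal (reads divided by a size factor of 1.23 in the control and 0.816 in the knockout), the authors' fold ratio and log2 fold, plus raw and adjusted p-values, per the file headers. Bowtie2 2.4.2, DESeq (no version stated) and the builds mm10 and GRCm38 are named in the submitters' processing notes. The sources used here do not name the counting tool, strand setting or annotation release.

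Differences, ratios and intervals were computed in Python 3.11.15 with scipy 1.17.1, and the length trend by lowess (fraction 0.3, statsmodels 0.14.6) on log10 length. They were tested on simulated data. The design assumed FPKM; counts were found too, but with 1 library per group no count model was fitted, and a size of 2-fold stands in for a test. The reads carry no molecular identifiers, so counting intervals treat possible PCR copies as independent. The clock genes, the lists and the alternatives were chosen with earlier results of these data known. Named genes were the 10 members, Srsf2, the measured clock transcription factor genes (1 is not reported here), and in other lists those past 2-fold or else the extremes. Usp2, Wee1 and the genes under the minimum level that are named beside these were added after their values were seen. Tspan4 is named as the highest output gene, although others of that list were past 2-fold. No genes are named for a like pattern, since 2 libraries give 1 difference per gene.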

Additional observations from a re-analysis of the deposited data

How the results depend on the processing

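The count of clock genes at least 2-fold lower, 4 as deposited, became 0 with median ratio scaling, 0 with the authors' normalised counts, 1 with the length trend removed and 8 with a 1.5-fold rule, where 29.6% of all measured genes were lower. It was 5 and 3 with pseudocounts of 0.1 and 1 FPKM, 3 with acinar markers left out of the total, and 4 with no minimum level or a mean of at least 5 FPKM. The count of those at least 2-fold higher was 0 under all 9 alternatives. Arntl, with a FPKM ratio of 2.28, entered this count only with no minimum level, where the pseudocount left it at 0.47. Of the 9 measured clock genes, 8 were below 0 and Cry1 above 0 under every alternative that gave a value (8 each, 7 for Per3, which is under 5 FPKM). Of all 10666 measured genes, 674 (6.32%) were lower as deposited. This became 1001 (9.38%) and 457 (4.28%) with pseudocounts of 0.1 and 1 FPKM, and 145 (1.36%) with median ratio scaling. It was 158 (1.48%) with the authors' scaling, 114 (1.07%) with the length trend removed and 325 (3.05%) without acinar markers. With no minimum it was 722 of 16528 genes (4.37%), at 5 FPKM 408 of 6543 (6.24%), and at 1.5-fold 3160 of 10666 (29.6%). The 167 higher (1.57%) became, in the same order, 204 (1.91%), 140 (1.31%), 343 (3.22%), 327 (3.07%), 214 (2.01%), 229 (2.15%), 221 (1.34%), 92 (1.41%) and 394 (3.69%). The causes of these shifts beyond the rescaling itself were not tested. No paired analysis was possible because each group has 1 library. Depth limits Arntl and Per3 most, and spread between mice is not measured for any gene.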

Other observations

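Per1 and Per2 also respond to signals from outside the clock, such as cyclic AMP and glucocorticoid hormone. The part of such signals in the clock gene differences was not tested. None of 12 measured immediate early genes was at least 2-fold lower or higher as deposited, against 6.32% and 1.57% of all measured genes. Relative to the median of all genes 2 were at least 2-fold higher, Ier2 at 1.17 and Fosb at 1.05, against 3.22% of all measured genes. The median of the list was 0.16, against -0.36 for all measured genes. The highest were Ier2 (27.1 and 48.0 FPKM, ratio 1.77, counting interval 1.61 to 1.94) and Fosb (4.37 and 7.33 FPKM), and the lowest were Crem (3.23 and 2.35 FPKM) and Sik1 (3.19 and 2.75 FPKM). Of the 12 genes, 4 were below 0 and 1, Crem, was below the median of all genes.

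Genes of the glucocorticoid response were split. Of 10 measured, 3 stood at least 2-fold lower and 1 as much higher as deposited, with a median of -0.29, against 6.32% and 1.57% of all measured genes. Relative to the median of all genes 1 was lower and 2 were higher, against 1.36% and 3.22% of all measured genes, with a median of 0.07. Fkbp5, a chaperone partner of the glucocorticoid receptor, counted 142 control reads and 21 knockout reads (ratio 0.171, 0.102 to 0.271), and passed the minimum level only through the control library (2.10 and 0.358 FPKM). Ddit4, an inhibitor of the mTOR pathway, had 76.2 and 29.5 FPKM, and Klf9, also counted among the output genes, was the remaining lower one. The metallothionein genes Mt1 (313.6 and 741.0 FPKM) and Mt2 (351.0 and 656.1 FPKM), which respond to metals and stress too, were the highest.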
